A study of Mus musculus with 18 samples.

Results

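The cytokine receptor genes Il7r, Il12rb1, Il12rb2, Il18r1, Il18rap and Il21r, the receptor tyrosine kinase gene Kit and the signal transducer gene Stat4 were followed across the stages of splenic natural killer (NK) cells with and without an induced deletion of Eomes. These 8 genes, taken from the 41388 genes of the deposited count tables, were chosen by name as receptors outside the IL-2/IL-15 receptor together with Kit and Stat4, and all 8 passed the filter on low counts. RNA was sequenced from NK cells of C57BL/6 mice aged 8 to 12 weeks, purified from pooled spleens. They were sorted by CD27, which early cells carry, and CD11b, which mature cells carry: stage II is CD27+CD11b-, the intermediate stage III has both (CD27+CD11b+), and stage IV is CD27-CD11b+. The knockout (KO) mice carried Ncr1-iCreERT2 as KI/WT together with the Rosa26YFPLSL reporter and Eomesfl/fl, and received tamoxifen, the drug that activates this Cre; the labels call them ILC-EomesΔ/Δ. The comparison mice are labelled WT; the tamoxifen treatment of 3 days is given for the mice in general, and whether the WT mice carried Cre is not stated. Each of the 6 combinations of genotype and stage had 3 libraries, 18 in all.

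Ncr1 encodes NKp46, which is found on NK cells and on some other innate lymphoid cells, so that the Cre is not restricted to NK cells. Each library is a pool of mice of unstated number from 3 separate experiments, and p-values measure the spread between these pools. The labels do not say whether sorting used the reporter, so that a KO pool may hold cells that escaped deletion. In bulk RNA, fewer cells of a type and less RNA per cell cannot be told apart.

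The receptors differ in their signalling. IL-7 receptor alpha, the product of Il7r, pairs with the common gamma chain and signals through JAK1, JAK3 and STAT5. KIT binds stem cell factor and is carried by early NK cells and by mast cells. The IL-12 receptor joins the chains encoded by Il12rb1 and Il12rb2 and acts through JAK2, TYK2 and STAT4, and the Il12rb1 chain also serves the IL-23 receptor. The IL-18 receptor joins the ligand-binding chain of Il18r1 with the accessory chain of Il18rap and acts through MYD88 and NF-kappaB. IL-21 receptor pairs with the common gamma chain and signals mainly through STAT3. IL-12 and IL-18 together are strong inducers of interferon gamma in NK cells, and mouse NK cells lose Il7r and Kit as they mature.

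Promoter sequence is shown for a gene that was high in stage II, Il7r, and for receptor chains that were high in stage IV, Il12rb2 and Il18rap. RefSeq windows (GRCm38.p6) of 300 bases, 250 before and 50 after a transcript start, were found for 7 of the 8 genes in 11 windows; Il12rb1 had no entry. Capitals mark matches, searched on both strands, to the short T-box core GTGTGA, which reads TCACAC on the opposite strand, and to the STAT palindrome TTCNNNGAA; the longer T-box core, GGTGTGA, contains the short core. For Il7r, stretches of 29 and 26 bases around the matches are given, at chr15:9530000-9530028 and chr15:9529969-9529994 on the minus strand. For Il12rb2 (chr6:67376189-67376438, minus strand) and Il18rap (chr1:40515112-40515361, plus strand), the 250 bases before the start are given, 5′ to 3′.
Il7r STAT palindrome: gttcaggagcTTCAGGGAAtaccaagatg
Il7r short T-box core: aaaaaaaaagTCACACtctacctctc
Il12rb2: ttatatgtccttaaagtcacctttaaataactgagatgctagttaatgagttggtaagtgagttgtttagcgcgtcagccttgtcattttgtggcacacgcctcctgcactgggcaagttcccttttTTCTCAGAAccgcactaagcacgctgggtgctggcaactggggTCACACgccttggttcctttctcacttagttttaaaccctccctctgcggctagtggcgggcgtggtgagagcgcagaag
Il18rap: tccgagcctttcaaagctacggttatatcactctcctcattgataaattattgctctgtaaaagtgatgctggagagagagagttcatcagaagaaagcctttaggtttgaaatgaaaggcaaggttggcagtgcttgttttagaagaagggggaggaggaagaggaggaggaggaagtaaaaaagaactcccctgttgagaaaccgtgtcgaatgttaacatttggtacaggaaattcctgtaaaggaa
Il7r held TTCAGGGAA at positions -142 to -134 from the start and TCACAC at -108 to -103. Il12rb2 held TTCTCAGAA at -123 to -115 and TCACAC at -80 to -75. The third window of Il18r1 held the palindromes TTCTGGGAA and TTCCCAGAA, and the windows of Kit, Il18rap, Il21r and Stat4 held no match to any of the 3 motifs. Of 32851 RefSeq windows of the same length, 14.5% held GTGTGA, 8.3% held TTCNNNGAA and 3.98% held GGTGTGA, which was in no window of the 8 genes. These matches are letters only, and say nothing about binding of a factor. In the GENCODE M21 annotation Il7r begins farther upstream, at chr15 position 9530176, so that both Il7r stretches lie within the gene there.

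Total counts ran from 18684350 to 28365837 per library, and no pair of libraries within a group was identical. Eomes, the deleted gene, was lower in KO at every stage, by edgeR's quasi-likelihood test with Benjamini-Hochberg adjustment over 14156 genes: the log2 fold change was -1.70 in stage II (adjusted p = 1.15e-05), -0.69 in stage III (adjusted p = 0.0143) and -1.28 in stage IV (adjusted p = 2.74e-04). The stage III call of Eomes was lost in 4 of 18 fits that left out a library, and without KO stage III replicates 1 and 3 (-0.84, adjusted p = 0.0874). NK cell markers (Ncr1, Klrb1c, Nkg7 and 8 others) were present in all 18 libraries. KO stage III replicates 1 and 3 had few detected genes, 14824 and 16536, and TMM factors of 0.883 and 0.783 (the few-gene libraries). Fits without them leave 1 library in KO stage III, replicate 2, so that values of that group rest on it alone. Detected genes were most numerous in replicate 1 of WT stage II (29859), then in KO stage IV replicate 3 (27912). No other library had over 21556. Of the counts of this pair, 99.38% and 99.68% fell in tested genes, against at least 99.90% elsewhere. The highest TMM factor, 1.138, was that of WT stage II replicate 1. What sets this pair apart was not tested. KO stage II replicate 2 and KO stage III replicate 2 held mast cell and basophil RNA: 10 markers without Kit and Cma1, among them Mcpt8, Prss34 and Fcer1a, summed to 74.5 and 142 CPM there and to between 2.63 and 10.1 CPM in the other 16 libraries. With Kit and Cma1, the full list of 12 genes did not set these KO libraries apart. It summed to 117 to 318 CPM in KO stage III, 267 to 300 CPM in WT stage III and 770 to 1040 CPM in WT stage IV. Xist, which is made by female cells, stood at 0 to 0.65 CPM in replicates 2 and 3 of each WT stage and at 7.23 to 41.9 CPM in the other 12 libraries; a term made from Xist and 4 Y-linked genes was among the alternative fits (the sex term).

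The 8 genes divided into 3 patterns along the stages. Il7r, Kit, Il12rb1 and Il21r were high in stage II and lower in stage IV in both genotypes, with the fall of Il21r complete by stage III. Il12rb2 and Il18rap rose from stage II to stage IV in both genotypes, Il18r1 rose in WT, and Stat4 did not pass the test between any stages. From stage II to stage IV, 7 of the 8 genes passed the test in WT (3 higher, 4 lower), against 15.1% of all tested genes, and 6 of 8 in KO (2 higher, 4 lower), against 14.9%. Between KO and WT at the same stage, Il7r in stage III was the only gene of the 8 that passed. Levels below are CPM, the count as a share of all counts over the tested genes, scaled by TMM and given in the order of replicates 1, 2 and 3; between genes, levels are compared per kilobase of gene length (RPKM).

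**Figure D1:**
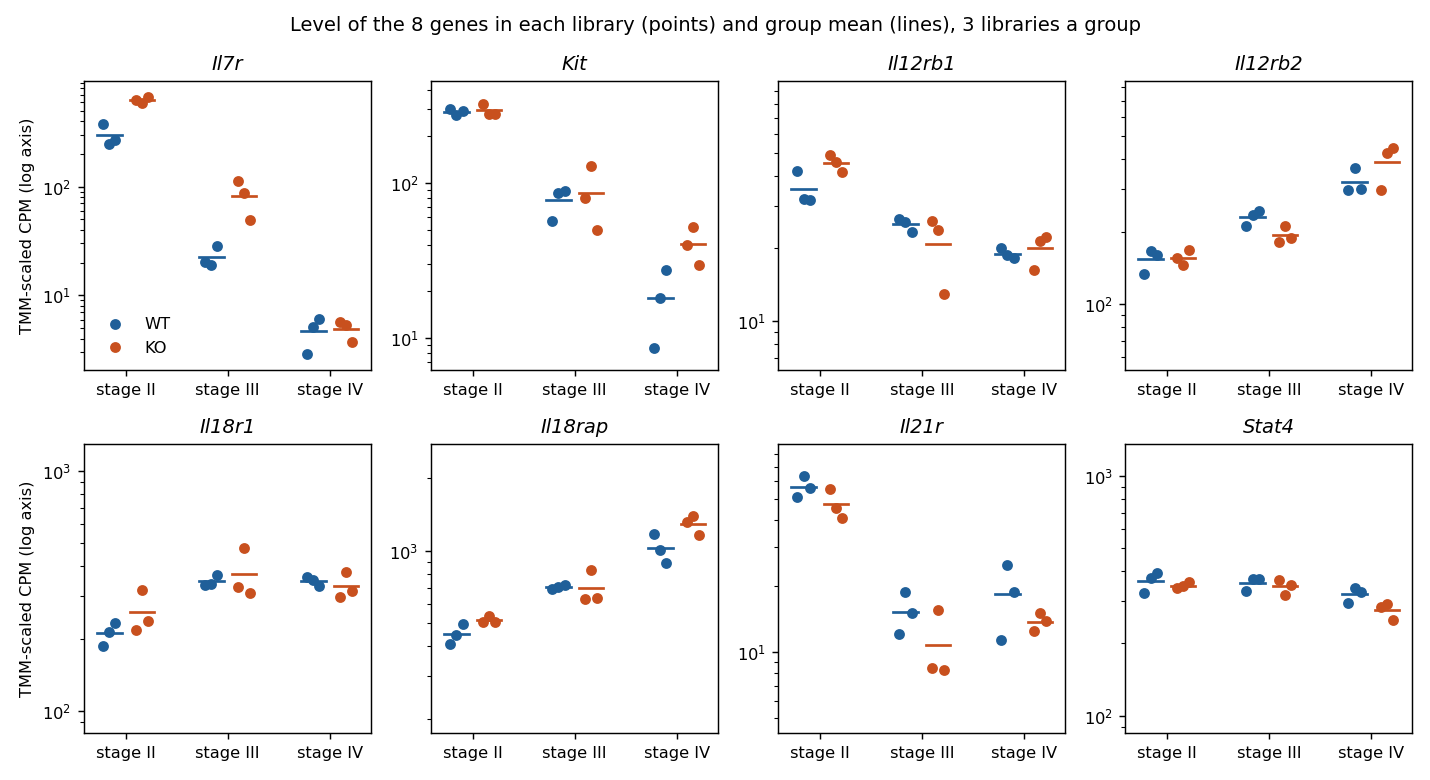
Each point is the level of a gene in a library (TMM-scaled CPM, log axis), with WT in blue and KO in orange, by stage; lines are means of 3 libraries. Il7r and Kit drop by more than any other of the 8 genes from stage II to stage IV, and the 3 KO stage III libraries lie above the 3 WT stage III libraries for Il7r.

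Per kilobase, the order of the genes changed between stage II and stage IV. In WT stage II, Stat4 (93.9 ± 9.32 RPKM, SD, n = 3) and Il7r (92.7 ± 21.6) stood highest and did not differ beyond their spread, followed by Il18rap (66.7 ± 6.38), Kit (49.6 ± 2.13), Il18r1 (44.3 ± 5.05), Il12rb2 (40.3 ± 4.58), Il21r (21.8 ± 2.50) and Il12rb1 (12.3 ± 2.04). In WT stage IV, Il18rap led at 151 ± 21.3 RPKM, followed by Il12rb2 (84.9 ± 10.4), Stat4 (82.7 ± 5.76) and Il18r1 (73.0 ± 3.11), then by Il21r (7.03 ± 2.59), Il12rb1 (6.61 ± 0.30), Kit (3.09 ± 1.59) and Il7r (1.46 ± 0.51). Il7r thus went from the top of the order, beside Stat4, to the lowest place.

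Il7r (ENSMUSG00000003882, chr15:9506161-9529876, minus strand) marks the early stages. Its level was 376, 246 and 271 CPM in WT stage II and 621, 586 and 667 CPM in KO stage II. In stage III it was 20.3, 19.0 and 28.7 CPM in WT and 112, 86.4 and 48.8 CPM in KO. In stage IV it was 2.87, 5.13 and 6.03 CPM in WT and 5.65, 5.37 and 3.69 CPM in KO. Every KO library was above every WT library in stages II and III, and the genotypes overlapped in stage IV, where the lowest library held 70 counts. In order of level the groups were KO stage II, WT stage II, KO stage III, WT stage III, KO stage IV and WT stage IV, and of these neighbours KO and WT stage IV overlapped.

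The difference between genotypes passed the test in stage III: Il7r was 3.64-fold higher in KO, with a log2 fold change of 1.86 ± 0.29 (SE; adjusted p = 0.00165). It was the 1 member of 8 called there, while 5.16% of all tested genes were called higher in KO and 7.9% in either direction. That background moved with the libraries: 1119 genes were called, against 4993 without KO stage III replicate 2, 144 without WT stage III replicate 3 and 10 with only the 6 stage III libraries fitted. Without KO stage III replicates 1 and 3 the value was 1.92, an effect size that rests on 1 KO stage III library, replicate 2. It was 1.82 (adjusted p = 7.08e-04) without the 2 KO libraries with mast cell and basophil RNA, of which that replicate is 1. Each KO stage III library is thus in 1 of these 2 sets. Leaving out each of the 18 libraries in turn gave values from 1.59 to 2.10, all past the threshold. With the spread estimated from the 6 stage III libraries alone the value was again 1.86, and the adjusted p was 0.138.

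In stage II, where 1.46% of all genes passed, none of the 8 did with edgeR, 1 had an unadjusted p under 0.05, and DESeq2 called 1 and limma voom 2. The gene in question was Il7r, at a log2 fold change of 1.07 ± 0.28 (adjusted p = 0.0800 with edgeR, 0.0123 with DESeq2, 3.16e-05 with voom). Il7r was called in stage II also when KO stage III replicate 1 (adjusted p = 0.0251), KO stage III replicate 3 (0.0177) or WT stage IV replicate 1 (0.0412) was left out. The second gene that voom called there was Il12rb1 (adjusted p = 0.0121). In stage IV the log2 fold change of Il7r was 0.07, with a 95% interval from -0.61 to 0.75 (adjusted p = 1).

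Whether the genotype effect on Il7r differed between stages was tested directly. The effect in stage IV minus that in stage III was -1.79 ± 0.42 on the log2 scale (adjusted p = 0.242), with an interval before adjustment from -2.72 to -0.87. None of the 8 genes passed this test with edgeR (0.0283% of all genes did), 2 had an unadjusted p under 0.05, and DESeq2 called Il7r (adjusted p = 0.0101). Without KO stage III replicate 2 the difference for Il7r was -1.76 (adjusted p = 0.0146), in a fit that called 2440 genes for this difference, against 4 with all libraries. For stage III minus II it was 0.79 (adjusted p = 0.415) and for stage IV minus II the interval ran from -1.92 to -0.09 (adjusted p = 0.598); none of the 8 passed either test with edgeR, DESeq2 or voom, against 0.0494% and 0.212% of all genes. At an unadjusted p under 0.05 stood Il12rb1 for stage III minus II, and Il7r and Kit for stage IV minus II.

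**Figure D2:**
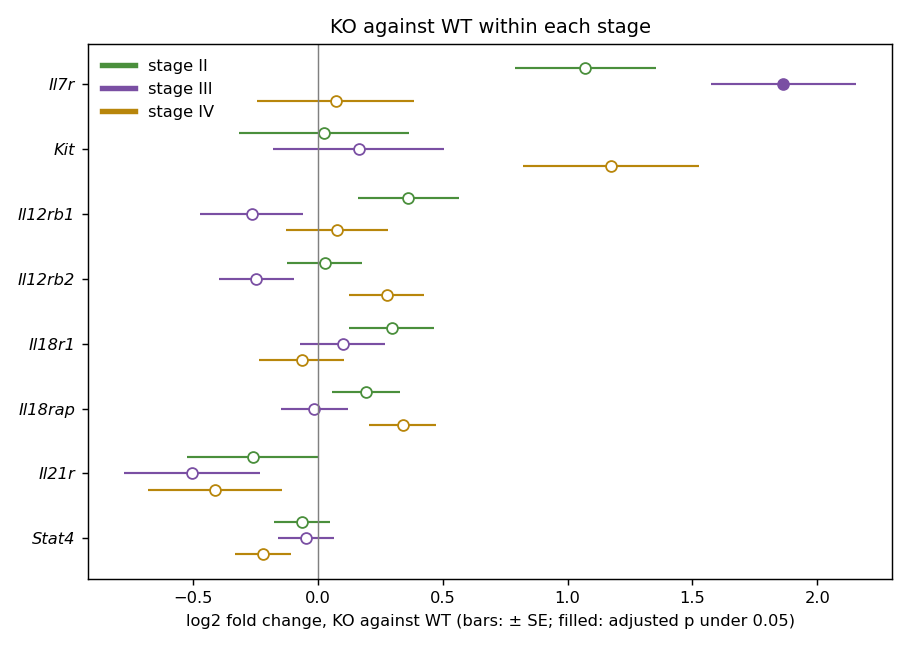
Log2 fold change of KO against WT for each gene in stage II (green), stage III (purple) and stage IV (gold); bars are ± SE and filled points passed the test at an adjusted p under 0.05. The filled point is Il7r in stage III, at 1.86.

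Along the stages Il7r fell in every step. In WT it changed by -3.71 ± 0.31 from stage II to III (adjusted p = 1.51e-06) and by -2.28 ± 0.31 from III to IV (adjusted p = 2.78e-04). In KO the changes were -2.92 ± 0.30 (adjusted p = 1.05e-05) and -4.07 ± 0.33 (adjusted p = 4.39e-07). The whole drop from stage II to IV was 63.8-fold in WT and 128-fold in KO. Between adjoining stages, 6 of the 8 genes passed from II to III in WT (2.97% of all genes) and 3 from III to IV (3.17%). In KO, 4 genes fell from II to III, where 4.83% of all genes were called lower and 10.1% in either direction, and 4 passed from III to IV (17.7%). These shares of all genes moved with the libraries fitted: from 420 genes to between 204 and 629 for the first WT step when a library was left out, and from 1429 to between 620 and 4828 for the first KO step. With only the groups compared in the fit, 224 genes passed from III to IV in KO, and calls were lost in KO for Il12rb1 from II to III (adjusted p = 0.120) and for Kit, Il12rb2 and Il18rap from III to IV (adjusted p from 0.0723 to 0.200).

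Markers of type 1 innate lymphoid cells (ILC1), relatives of NK cells that carry Il7r, were compared with Il7r. Like Il7r, their sum was higher in every KO library than in every WT library in stages II and III. In stage IV this held for the sum and not for Il7r. The list held Itga1, Cxcr6, Zfp683, Tmem176a, Tmem176b, Tnfsf10, Cd200r1, Inpp4b, Gpr15, Ltb and Cd3e, 11 genes besides Il7r; Cd3e is also a T cell marker. Of the 11, 5 were higher in KO in stage II, 9 in stage III and 2 in stage IV, and none was lower. Over all genes 0.466%, 5.16% and 0.24% were called higher in KO in these stages. The list was chosen with earlier results of these data known, so that these counts are not an independent test. Summed, they stood at 502 to 920 CPM in WT stage II and at 1112 to 1511 CPM in KO stage II. In stage III the sums were 54.0 to 69.6 CPM in WT and 185 to 307 CPM in KO, and in stage IV 24.2 to 29.7 and 54.5 to 70.7 CPM. At most 1 of the 11 genes was at 0 in a library (WT stage III replicate 1). The part of such cells in the difference in Il7r was not tested.

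Other cells can also carry Il7r. In stage II the 11 NK cell markers summed to 24340 to 27532 CPM in WT and 18760 to 20458 CPM in KO, without overlap, and 3 of them were called lower in KO and 0 higher. Among those called lower were Eomes, the deleted gene itself, and Prf1. Of 14156 tested genes, 141 were called lower in KO in stage II. In stage III the NK cell markers summed to 35097 to 37912 CPM in WT and to 41607, 26315 and 48185 CPM in KO, so that the genotypes overlapped. They also overlapped in stage IV, at 43485 to 46601 CPM in WT and 39906 to 47580 CPM in KO. The 12 T cell markers summed to 449 to 858 CPM in WT stage III and 495 to 756 CPM in KO stage III, ranges that overlapped; most of this was Cd28 and Lef1, and Cd4, Cd8a and Cd5 were at or near 0. The 11 B cell markers summed to 28.8 to 50.9 CPM in WT stage III and 74.3 to 305 CPM in KO stage III, most of it Cd74, while Pax5 stayed at or under 0.06 CPM. In stage II the B cell sums were 544 to 712 CPM in WT and 769 to 878 CPM in KO, again without overlap and mostly Cd74. The part of these cells in the differences in Il7r was not tested.

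Kit (ENSMUSG00000005672, chr5:75574916-75656722, plus strand) was also high in stage II, and its group mean was lower in each later stage. In stage II it stood at 299, 275 and 294 CPM in WT and 326, 279 and 279 CPM in KO. In stage III the values were 57.0, 85.9 and 88.6 CPM in WT and 80.5, 129 and 50.1 CPM in KO. In stage IV they were 8.62, 18.1 and 27.2 CPM in WT and 39.8, 52.2 and 29.4 CPM in KO. The genotypes overlapped in stages II and III, and in stage IV every KO library was above every WT library. Between stages, the lowest KO stage III library (50.1 CPM) was below the highest KO stage IV library (52.2 CPM). KO against WT in stage II was 0.03 on the log2 scale, with an interval from -0.72 to 0.77. The order of the group means was KO stage II, WT stage II, KO stage III, WT stage III, KO stage IV and WT stage IV.

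That stage IV difference in Kit did not pass the test: the log2 fold change was 1.17 ± 0.35 (interval 0.40 to 1.94, adjusted p = 0.299). None of the 8 genes passed in stage IV with edgeR (0.509% of all genes did) or with DESeq2; 2 genes, Kit and Il18rap, had an unadjusted p under 0.05, and voom called both, Kit with an adjusted p of 0.0200. The value moved most without WT stage IV replicate 1, the lowest library (0.83), and without WT stage IV replicate 3 (1.58). The 10 mast cell and basophil markers stood between 2.63 and 5.66 CPM in the 6 stage IV libraries, near 0 in both genotypes.

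Down the stages Kit fell in each genotype. In WT the change was -1.91 ± 0.35 from stage II to III (adjusted p = 0.00458) and -2.10 ± 0.36 from III to IV (adjusted p = 0.00229). In KO it was -1.77 ± 0.35 from II to III (adjusted p = 0.00404) and -1.10 ± 0.35 from III to IV (adjusted p = 0.0391). The highest KO stage III library for Kit, replicate 2 at 129 CPM, is also one of those with mast cell and basophil RNA. It also had the highest B cell marker sum of stage III (305 CPM) and the highest sum of 14 myeloid markers (134 CPM). For the myeloid markers KO stage III replicate 3 followed at 82.7 CPM, and the rest lay between 13.5 and 39.2 CPM. Without the 2 KO libraries with mast cell and basophil RNA, the KO changes in Kit were -2.21 (adjusted p = 0.0013) and -0.69 (adjusted p = 0.144). The last step in KO also lost its call in 13 of the 18 fits that left out a library (adjusted p from 0.0181 to 0.150). Without KO stage III replicates 1 and 3 the first step was -1.20 (adjusted p = 0.226).

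The chains of the IL-12 receptor moved in opposite directions. Il12rb1 (ENSMUSG00000000791, chr8:70808449-70821424, plus strand), which encodes the beta 1 chain, fell from stage II to stage IV by 0.90 ± 0.21 on the log2 scale in WT (adjusted p = 0.00633) and by 1.18 ± 0.21 in KO (adjusted p = 5.60e-04). Il12rb2 (ENSMUSG00000018341, chr6:67291318-67376188, minus strand), which encodes the beta 2 chain that recruits STAT4, rose by 1.07 ± 0.15 in WT (adjusted p = 9.43e-05) and by 1.32 ± 0.15 in KO (adjusted p = 7.46e-06). These 4 results held in all 18 fits without a library and in all 11 other settings. Il12rb2 overlaps Serbp1 on the opposite strand, and since the counting is not stated to use strand, reads in the overlap cannot be told apart.

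By library, Il12rb1 was at 42.1, 32.1 and 31.8 CPM in WT stage II and 48.8, 45.9 and 41.5 CPM in KO stage II. Stage III libraries held 26.4, 25.8 and 23.3 CPM in WT and 26.0, 23.9 and 12.9 CPM in KO. Stage IV libraries held 20.0, 18.7 and 18.3 CPM in WT and 16.3, 21.4 and 22.3 CPM in KO. The genotypes overlapped at every stage, and the lowest library was KO stage III replicate 3, which also had few detected genes. From stage II to III the fall was called in KO, at -1.12 ± 0.21 (adjusted p = 0.00227), and not in WT, at -0.49 ± 0.20 (adjusted p = 0.333). The KO fall was -0.93 without the few-gene libraries (effect size only) and -1.22 (adjusted p = 0.00285) without those with mast cell and basophil RNA. The difference between the falls in KO and WT was -0.63 (adjusted p = 0.398), so that they were not shown to differ.

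Il12rb2 was at 133, 166 and 160 CPM in WT stage II and at 155, 145 and 167 CPM in KO stage II. The stage III values were 212, 235 and 243 CPM in WT and 181, 212 and 189 CPM in KO. The stage IV values were 297, 368 and 302 CPM in WT and 298, 426 and 445 CPM in KO. Within each genotype no library of a later stage was below a library of an earlier stage, and KO overlapped WT at every stage. In WT the step from stage II to III passed the test (0.59 ± 0.15, adjusted p = 0.0430) and that from III to IV did not (0.49 ± 0.15, adjusted p = 0.107, or 0.0366 with the replicate block, a term for the replicate number). The first of these lost its call in 13 of 18 fits without a library (adjusted p from 0.0220 to 0.229). In KO the later step passed (1.01 ± 0.15, adjusted p = 2.89e-04) and the earlier did not (0.31 ± 0.15, adjusted p = 0.184). The later KO step was 0.87 without the few-gene libraries (effect size only) and 1.07 (adjusted p = 4.07e-04) without those with mast cell and basophil RNA.

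The ratio of the chains within a library does not depend on scaling between libraries. Il12rb2 over Il12rb1, in RPKM, was 3.37 ± 0.85 (SD, n = 3) in WT stage II, 6.96 ± 0.91 in WT stage III and 12.9 ± 1.85 in WT stage IV. In KO it was 2.62 ± 0.38, 7.69 ± 3.04 and 14.7 ± 0.70. The 3 stages did not overlap in either genotype, and KO overlapped WT at each stage. The widest group was KO stage III, at 5.26, 6.71 and 11.1, where the highest value belongs to replicate 3. With 3 libraries against 3 an exact two-sided permutation test cannot go below p = 0.10, and none is given.

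The genes of the IL-18 receptor lie side by side, with 14507 bases between them. Il18r1 (ENSMUSG00000026070, chr1:40465552-40500854, plus strand) stood at 186, 213 and 233 CPM in WT stage II and 218, 319 and 238 CPM in KO stage II. Values in stage III were 334, 338 and 368 CPM in WT and 329, 476 and 309 CPM in KO. Values in stage IV were 359, 350 and 331 CPM in WT and 299, 380 and 316 CPM in KO. KO overlapped WT in all 3 stages. The highest library of each of the first 2 KO groups, replicate 2 at 319 and at 476 CPM, is a library with mast cell and basophil RNA; the part of those cells in these values was not tested.

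In WT, Il18r1 rose from stage II to III by 0.72 ± 0.17 on the log2 scale (adjusted p = 0.0280) and changed by 0.00 from III to IV (interval -0.37 to 0.37). The first step lost its call without WT stage II replicate 1 (adjusted p = 0.157) or 2 (0.0913) and without WT stage III replicate 1 (0.0757), 2 (0.0980) or 3 (0.144). From stage II to IV the rise was 0.72 ± 0.17 (adjusted p = 0.00830). In KO the change from II to IV was 0.36 ± 0.17 (adjusted p = 0.198), or 0.54 (adjusted p = 0.0184) without the 2 libraries with mast cell and basophil RNA. From II to III it was 0.52 ± 0.17 (adjusted p = 0.0623) with them and 0.49 (adjusted p = 0.0285) without them. This step passed in 6 of the 11 other settings, among them the replicate block (0.0294). Without the few-gene libraries it was 0.88 (effect size only). The genotype effect in stage IV minus that in stage II was -0.36 (interval -0.89 to 0.17, adjusted p = 1).

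Il18rap (ENSMUSG00000026068, chr1:40515362-40551705, plus strand), the accessory chain, kept rising after stage III. It was at 409, 446 and 495 CPM in WT stage II and 504, 537 and 503 CPM in KO stage II. Stage III gave 690, 704 and 717 CPM in WT and 628, 829 and 633 CPM in KO. Stage IV gave 1175, 1003 and 889 CPM in WT and 1314, 1397 and 1167 CPM in KO. Within each genotype the 3 stages did not overlap. Every KO stage II library was above every WT stage II library, the nearest at 503 and 495 CPM. KO against WT did not pass the test in stage II (log2 fold change 0.19, interval -0.10 to 0.49, adjusted p = 0.828). The rise from stage II to IV was 1.18 ± 0.14 in WT (adjusted p = 1.24e-05) and 1.33 ± 0.14 in KO (adjusted p = 2.29e-06), in all 18 fits without a library and in all 11 other settings.

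By step, Il18rap rose in WT by 0.64 ± 0.14 from stage II to III (adjusted p = 0.0118) and by 0.54 ± 0.14 from III to IV (adjusted p = 0.0374). The first step lost its call without WT stage II replicate 1 (adjusted p = 0.0822) or 2 (0.0525) and without WT stage III replicate 2 (0.0648) or 3 (0.0696). The later step lost it in 14 of 18 fits without a library (adjusted p from 0.0153 to 0.315). In KO the later step was 0.89 ± 0.14 (adjusted p = 3.40e-04), and the earlier was 0.44 ± 0.14 (adjusted p = 0.0504). Without the few-gene libraries these KO steps were 0.63 and 0.69 (effect sizes only). Without the libraries with mast cell and basophil RNA they were 1.03 (adjusted p = 9.21e-05) and 0.33 (adjusted p = 0.126). The earlier KO step passed in 6 of the 11 other settings, the replicate block among them (adjusted p = 0.0410). In stage IV, KO against WT was 0.34 ± 0.14 (interval 0.04 to 0.63, adjusted p = 0.743 with edgeR and 0.0282 with voom).

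Il18rap over Il18r1, in RPKM, lay between 1.18 and 1.62 in the 12 libraries of stages II and III and between 1.89 and 3.10 in the 6 of stage IV. The ratio was 1.51 ± 0.04 (SD, n = 3) in WT stage II, 1.43 ± 0.05 in WT stage III and 2.07 ± 0.21 in WT stage IV. In KO it was 1.43 ± 0.23, 1.34 ± 0.11 and 2.76 ± 0.29. The WT stage IV libraries were at 2.30, 2.01 and 1.89 and the KO stage IV libraries at 3.10, 2.59 and 2.60. The genotypes overlapped in stages II and III and did not overlap in stage IV. The lowest KO values of stages II and III, 1.18 and 1.23, are those of the libraries with mast cell and basophil RNA.

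**Figure D3:**
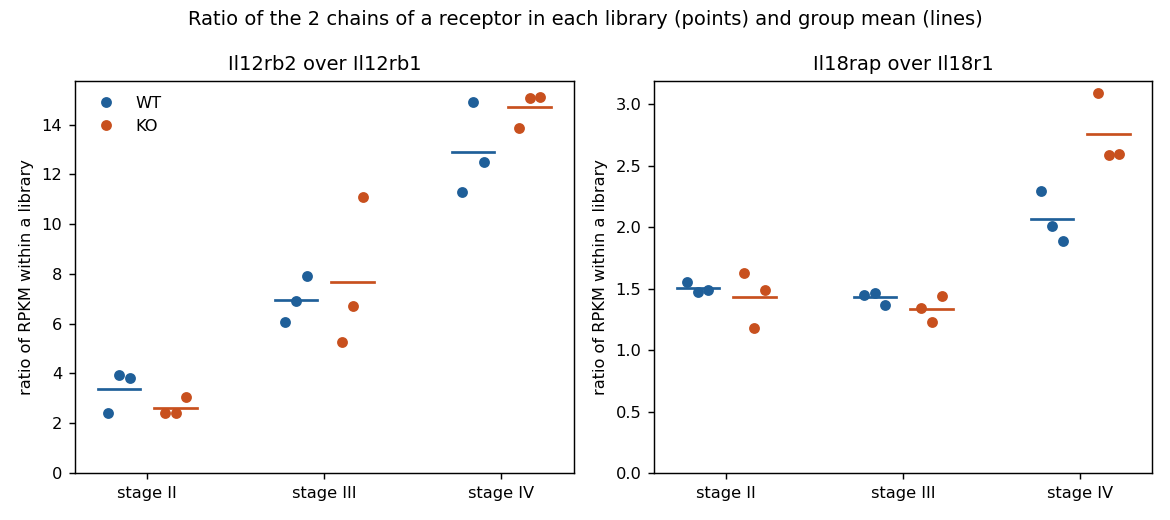
Ratio of RPKM values within each library (points) and group means (lines, n = 3) for Il12rb2 over Il12rb1 and for Il18rap over Il18r1, WT in blue and KO in orange. The first ratio climbs at each stage, from 3.37 to 12.9 in WT; the second stands apart in stage IV, where KO (2.59 to 3.10) lies above WT (1.89 to 2.30).

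Il21r (ENSMUSG00000030745, chr7:125603429-125633570, plus strand), the receptor of a cytokine made mainly by T helper cells, was a stage II gene. It was at 50.7, 63.7 and 55.8 CPM in WT stage II and 55.4, 45.6 and 41.0 CPM in KO stage II. In stage III it was at 12.0, 18.8 and 15.0 CPM in WT and 8.43, 15.5 and 8.31 CPM in KO. In stage IV it was at 11.4, 24.9 and 18.7 CPM in WT and 12.5, 15.0 and 13.8 CPM in KO. KO overlapped WT at each stage, and stages III and IV overlapped in WT and in KO. The fall from stage II to III was -1.89 ± 0.27 in WT (adjusted p = 4.82e-04) and -2.13 ± 0.28 in KO (adjusted p = 9.96e-05), and stage IV against III was 0.26 (adjusted p = 0.878) and 0.35 (adjusted p = 0.375). The KO fall was -1.61 without the few-gene libraries (effect size only) and -2.52 (adjusted p = 9.61e-05) without those with mast cell and basophil RNA.

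KO against WT for Il21r was -0.26, -0.51 and -0.41 on the log2 scale in stages II, III and IV, none past the threshold. In stage III the interval was -1.10 to 0.09 (adjusted p = 0.223). Without KO stage III replicate 2 the value was -0.88 (adjusted p = 0.0230), and without KO stage III replicates 1 and 3 it was 0.01 (effect size only). The value in stage III thus rests on which of the KO libraries enter.

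Stat4 (ENSMUSG00000062939, chr1:51987148-52107189, plus strand), the transcription factor downstream of the IL-12 receptor, was the steadiest of the 8. It was at 324, 374 and 394 CPM in WT stage II and 339, 345 and 360 CPM in KO stage II. In stage III it was at 330, 371 and 370 CPM in WT and 368, 319 and 349 CPM in KO. In stage IV it was at 296, 339 and 327 CPM in WT and 285, 291 and 250 CPM in KO. All 18 libraries lay between 250 and 394 CPM, and the KO stage IV libraries were all below the WT ones. The log2 fold change of KO against WT there was -0.22 (interval -0.46 to 0.03, adjusted p = 0.993).

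From stage II to IV, Stat4 changed by -0.18 ± 0.11 in WT (adjusted p = 0.323) and by -0.34 ± 0.11 in KO (adjusted p = 0.0533), the latter just outside the threshold and called in 8 of the 11 other settings. The gene models Gm28177 (same strand, 177 counts over all libraries) and Gm3940 (a processed pseudogene on the opposite strand, 3632 counts) overlap Stat4, which held at least 5391 counts in every library.

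**Figure D4:**
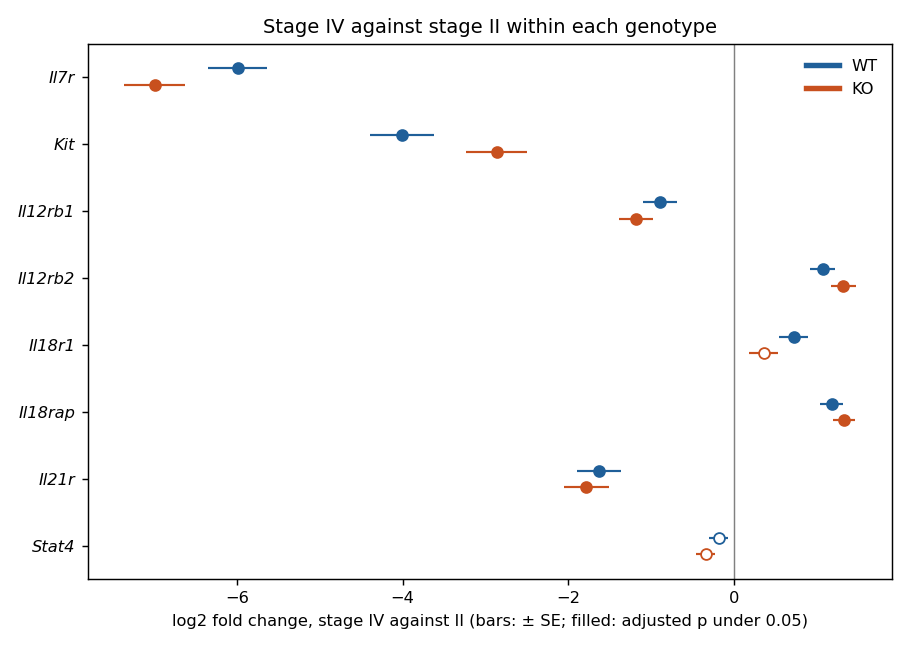
Log2 fold change of stage IV against stage II for each gene in WT (blue) and KO (orange); bars are ± SE, filled points passed the test at an adjusted p under 0.05. Il7r and Kit lie farthest left, at -5.99 and -4.01 in WT, Il12rb2 and Il18rap lie right of 0 in both genotypes, and both Stat4 points and the KO point of Il18r1 are open.

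Genes that signal below these receptors were compared between KO and WT by 7 lists. Of 16 genes of IL-7 and common gamma chain signalling, 3 passed in stage II (2 higher, 1 lower), 3 in stage III (2 higher, 1 lower) and 1 in stage IV (higher). Over all genes 1.46%, 7.9% and 0.509% were called in these stages. The median log2 fold changes of the list were 0.02, 0.12 and 0.09, beside -0.01, 0.02 and 0.02 over all genes. Cish and Socs2, feedback inhibitors that STAT5 induces, were higher, and Jak1, the kinase bound to IL-7 receptor alpha, was lower. With only the 6 stage III libraries fitted, none of the stage III calls in these lists was kept, and without KO stage III replicates 1 and 3 those of Socs2, Jak1, Cbl, Irf8, Il2ra, Bcl3 and Il10ra were lost. With a sex term in the fit, calls were lost for Jak1, Socs2, Gab2, Irf8 and Prf1 in stage II, for Socs2 and Bcl3 in stage III and for Socs2 and Il10rb in stage IV (adjusted p from 0.0561 to 0.116).

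Cish was at 21.3, 20.1 and 19.4 CPM in WT stage II and at 56.6, 57.2 and 62.1 CPM in KO stage II. In stage III it was at 9.24, 11.8 and 8.09 CPM in WT and 18.7, 22.5 and 24.9 CPM in KO, without overlap in either stage. The log2 fold changes were 1.53 ± 0.18 (adjusted p = 1.26e-04) and 1.18 ± 0.18 (adjusted p = 0.00161), called in all 18 fits without a library. In stage IV the genotypes overlapped, at 10.7, 13.6 and 9.92 CPM in WT and 11.7, 15.1 and 18.3 CPM in KO. Socs2 was called in all 3 stages, at 1.01, 0.78 and 1.19, and lost the call in 5, 16 and 14 of the 18 fits. Jak1 was called at -0.58 in stage II and -0.45 in stage III and lost the call in 12 and 14 of them.

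Of 11 genes of IL-12 signalling, 10 were tested (Il23r had too few counts) and 0 passed between KO and WT at any stage with edgeR; 3, 3 and 1 had an unadjusted p under 0.05 in stages II, III and IV, and DESeq2 called 0, 2 and 0. Of 21 genes of IL-18 signalling, 1 passed, in stage III: Irak3, an inhibitor of MYD88 signalling, at 0.13 to 0.15 CPM in WT and 3.81, 1.57 and 1.18 CPM in KO, a low level throughout. In stages II and IV, where edgeR called 0 of the 21, the unadjusted p was under 0.05 for 2 and 0 genes, and DESeq2 called 2 and 0. Of 14 genes of KIT signalling, Gab2 (-1.08) and Fyn (-0.78) were lower in stage II, Cbl (-1.10) was lower and Ptpn6 (0.78) higher in stage III, and Ptpn6 (0.91) was higher in stage IV. Beside these lists, 1.46%, 7.9% and 0.509% of all genes were called in stages II, III and IV. Ptpn6 encodes the phosphatase SHP-1, which restrains KIT and other receptors; it was at 304 to 338 CPM in WT and 519 to 559 CPM in KO in stage III and kept its call in stages III and IV in all 18 fits without a library. The calls of Gab2 and Fyn were each lost in 14 of the 18.

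**Figure D5:**
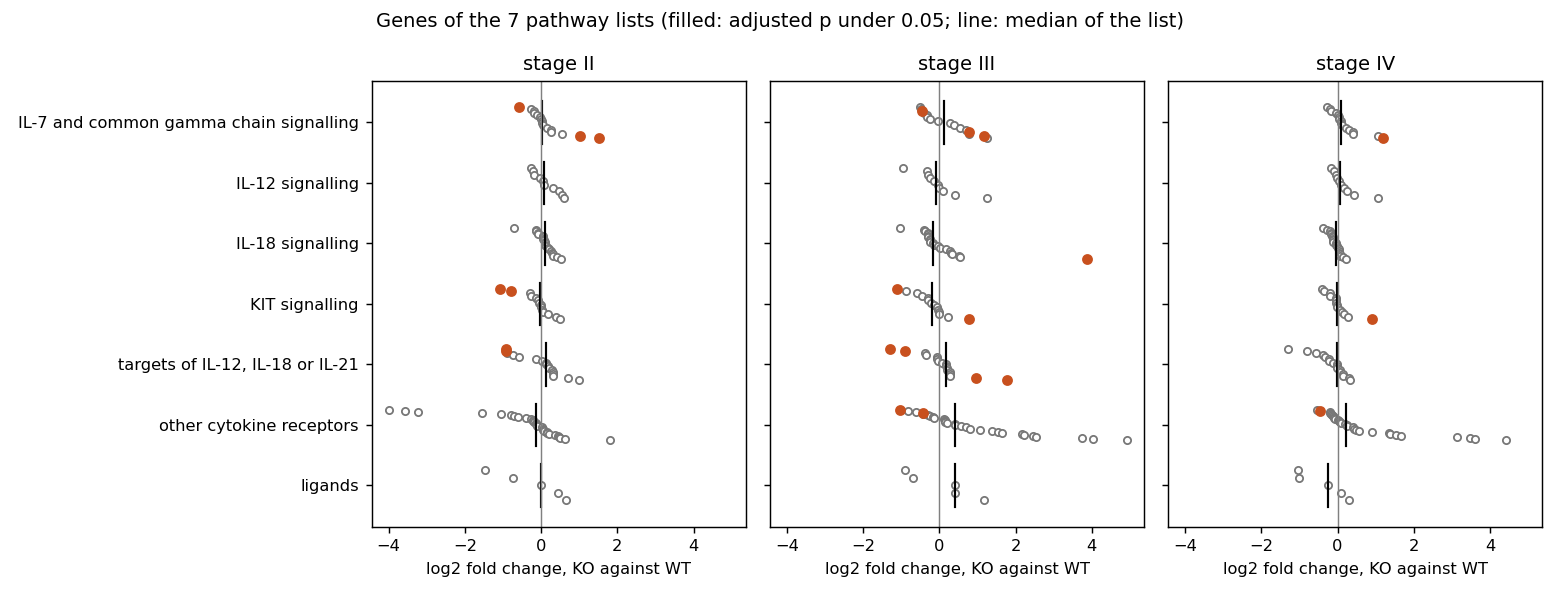
Log2 fold change of KO against WT for each tested gene of the 7 lists in stages II, III and IV; filled points passed the test at an adjusted p under 0.05 and black lines are list medians. The medians of other cytokine receptors and ligands lie farthest from 0, at 0.41 and 0.40 in stage III and 0.21 and -0.26 in stage IV. Over all genes the median was 0.02 in both stages. The filled points are few in each list.

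Targets that IL-12, IL-18 or IL-21 induce in NK cells changed in both directions. Of 17 tested, 2 were lower in stage II (Irf8, -0.92, and Prf1, -0.92), 2 lower (Irf8, -0.89, and Prf1, -1.29) and 2 higher (Il2ra, 1.77, and Bcl3, 0.96) in stage III, and 0 passed in stage IV (2 at an unadjusted p under 0.05, and 1 called by DESeq2). The shares of all genes called in these stages were 1.46%, 7.9% and 0.509%. Prf1, which encodes perforin, was at 1545, 1692 and 1572 CPM in WT stage III and 611, 903 and 447 CPM in KO stage III. Il2ra, the alpha chain of the IL-2 receptor, was at 2.05, 2.52 and 1.47 CPM in WT stage III and 9.85, 6.17 and 4.62 CPM in KO stage III. The calls of Bcl3, Irf8 and Il2ra in stage III were lost in 15, 5 and 1 of the 18 fits without a library, and that of Prf1 in none; in stage II those of Irf8 and Prf1 were lost in 11 and 5.

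Of 36 other cytokine receptors listed, 30 were tested, and Il10ra (-1.02) and Il10rb (-0.44) were lower in KO in stage III and Il10rb (-0.47) in stage IV. In stage II edgeR called 0 of them, 6 had an unadjusted p under 0.05, and DESeq2 called 2. Il10rb lost its call in 4 of 18 fits without a library in stage III and in 16 in stage IV. In stage III this is 2 of 30 genes, near the share of all genes called there. Il10ra and Il10rb encode both chains of the IL-10 receptor. Il10ra was at 293, 280 and 259 CPM in WT stage III and 106, 194 and 110 CPM in KO stage III. Of 10 ligands of the 8 genes' receptors and related cytokines, 5 had enough counts, and 0 passed between genotypes at any stage with edgeR; 2, 2 and 0 had an unadjusted p under 0.05, and DESeq2 called 1, in stage III.

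Across the 18 libraries, the genes whose log2 CPM followed each member most closely were ranked by Pearson correlation among 14155 others, as a description: the libraries share stage and genotype. For Il7r these were Il2ra (0.99), Lpxn (0.98) and Cd7 (0.98), and for Kit they were Adgrg5 (0.97), Rftn1 (0.95) and Krt83 (0.95). Il12rb1 was closest to Pgs1 (0.94), St14 (0.94) and Rgs3 (0.93), and Il21r to Il4ra (0.95), Cnr2 (0.95) and Lypd6b (0.94). Il12rb2 was closest to Prune1 (0.96), Heatr9 (0.95) and Rasgrp2 (0.95), and Il18rap to Prune1 (0.96), Snx10 (0.95) and Atp2a3 (0.95). Prune1 was thus the first gene for both chains that rose with the stages in both genotypes. Il18r1 had weaker neighbours, Slc25a24 (0.87), Ripor2 (0.86) and Crybg1 (0.86), and Stat4 had Fhit (0.92), Gapdh (0.92) and Bex3 (0.91). Between members, Il7r and Kit had r = 0.93, Il12rb2 and Il18rap r = 0.93, and Il7r and Il12rb2 r = -0.92.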

How the data were processed

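The 18 libraries, 3 for each of 6 groups, hold RNA of splenic NK cells sorted by stage. Per the submitters' processing notes, STAR 2.0.4 and featureCounts 1.4.5 from Subread were used; for the genome build, not given in the sources used here, gene positions overlapped those of GENCODE M21 (GRCm38) for 40244 of 40340 IDs. Each deposited file gives, per the file headers, gene position, length, the count of reads per gene, CPM and RPKM. The deposited CPM and RPKM are the authors' counts rescaled by library total and gene length (largest relative difference 5.05e-15 and 6.63e-14), so the counts were used. Symbols came from GENCODE M21 (GRCm38), where 40340 of 41388 IDs were found and 40254 had a symbol; gene ends were the same there for 7 of the 8 members and differed for Il7r.

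Counts were fitted with edgeR 4.0.16 (glmQLFit and glmQLFTest) in R 4.3.3, with TMM scaling, filterByExpr by group (14156 genes), a mean for each of the 6 groups and Benjamini-Hochberg adjustment over all tested genes at 0.05. The SE is the log2 fold change divided by the root of F, and intervals (95%) are approximate and cover single tests. The 12 comparisons are KO against WT at 3 stages, 6 between stages and 3 differences of effects. The alternatives, with limma 3.58.1 and DESeq2 1.42.0 among the tools, are given in the closing section. All 8 members, genes of 7 pathway lists that passed between KO and WT, and the 3 closest genes per member are named. Members and lists were chosen with earlier results of these data known. By the correlation of deviations from group means, same-numbered libraries deviated together between the WT stages (r from 0.11 to 0.48 over 9 pairs) and between KO stages II and III (0.15 to 0.32), and not between KO and WT of a stage (-0.14 to 0.14) or between KO stage IV and the other KO stages (-0.07 to 0.25); the labels do not say what a number marks. The highest such correlation between groups, 0.63, joined libraries of unlike number, KO stage IV replicate 3 with replicate 1 of WT stage II. The replicate block was a term over all 18 libraries.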

Additional observations from a re-analysis of the deposited data

How the results depend on the processing

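Of the 8 members, the number called was recomputed in 11 other settings and in 18 fits that each left out a library; no value that had passed the test changed sign. KO against WT in stage II, 0 in the report, gave 1 with no filter on low counts, with DESeq2, without the 2 KO stage III libraries with few genes and with only the groups compared, and 2 with limma voom and quality weights; leaving out a library gave 0 to 1. Stage III, 1 in the report, gave 0 with only the groups compared, 2 without the 2 KO libraries with mast cell and basophil RNA (a setting chosen after seeing the data), and 1 to 2 when a library was left out. Stage IV, 0 in the report, gave 1 with no filter and 2 with voom. The effect in stage IV minus III, 0 in the report, gave 2 with no filter, 1 with DESeq2, 1 without the 2 KO libraries with mast cell and basophil RNA, and 0 to 1 when a library was left out; stage IV minus II gave 2 with no filter. WT stage IV against III, 3 in the report, gave 5 with voom and with only the groups compared, and 2 to 3 when a library was left out. KO stage IV against III, 4 in the report, gave 1 with only the groups compared. WT stage III against II, 6 in the report, gave 3 to 6 when a library was left out. With only the groups compared the fit holds fewer samples; for the others the cause was not tested. Scaling by DESeq2 size factors or the upper quartile, a sex term and an immediate early gene term moved no count of members by over 1.5 times.

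Of 18 libraries, 14 were closest to their own replicate number. With the replicate block, KO against WT called 0, 1 and 0 of the 8 members in stages II, III and IV, and Il7r in stage III was 1.84 (adjusted p = 0.0029). Of the other member results, the block started calls for Il12rb2 in WT and for Il18r1, Il18rap and Stat4 in KO, each between stages, and ended none. The least covered values are those of Il7r and Il21r, with 70 and 148 counts in their lowest libraries; counting error there is larger than for Il18rap, which held at least 8979.

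Over all genes, the number called depended more on the setting. Stage II, 207 in the report, gave 368 with DESeq2, 1061 with voom, 623 with no filter, 345 with only the groups compared, 463 without the 2 KO stage III libraries with few genes, and 105 to 325 when a library was left out. Stage III, 1119 in the report, gave 2316 with DESeq2, 730 with voom, 1941 with no filter, 1846 with an immediate early gene term, 1770 with the replicate block, 10 with only the groups compared, 162 without the few-gene libraries, 4769 without those with mast cell and basophil RNA, and 144 to 4993 when a library was left out. Stage IV, 72 in the report, gave 156 with DESeq2, 358 with voom, 323 with no filter, 168 without the few-gene libraries, and 30 to 110 when a library was left out. Between stages, when a library was left out, WT gave 204 to 629 from II to III (420 in the report), 235 to 699 from III to IV (449) and 1289 to 2619 from II to IV (2135), and KO gave 620 to 4828 (1429), 1101 to 5556 (2509) and 1429 to 2540 (2106). In the same order, voom gave 1830, 2526 and 5155 for WT, then 625, 1561 and 4191 for KO. With only the groups compared, WT gave 1014, 1459 and 3663, and the KO steps gave 189 and 224. Without the few-gene libraries, WT gave 909, 1022 and 3596, and KO gave 506, 810 and 3355; without those with mast cell and basophil RNA, the KO steps gave 3932 and 5336. DESeq2 gave 684 and 752 for the WT steps and 2311 for the first KO step, and 734 genes passed the first WT step with no filter. The differences of effects gave 7 (III minus II), 4 (IV minus III) and 30 genes (IV minus II) in the report; leaving out a library gave 2 to 2443, 0 to 2440 and 2 to 66, and the other settings gave 2 to 1686, 0 to 2198 and 28 to 1671. Of the recomputed values of single genes, 3184 stayed on their side of the threshold, 261 lost the call and 64 gained it.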
